A study of Mus musculus with 24 samples.

Results

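Rbm3 and Cirbp encode a pair of small RNA-binding proteins that mammalian cells make in larger amounts when they are mildly cooled. They make up 2 of 36595 genes listed for the retina and 2 of 36109 listed for the lung, found by their Ensembl identifiers (ENSMUSG00000031167 for Rbm3 and ENSMUSG00000045193 for Cirbp). Rbm3 was selected on its retinal values, as a gene listed as rising with hyperoxia in GSDMD-KO retinas alone. Its levels in the retina are therefore given as a description without a test. Its levels in the lung and the levels of Cirbp in both tissues are not part of that rule and were tested, although the pair was proposed with earlier results of these data known.

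The series holds 24 libraries, 12 from lungs and 12 from retinas, in groups of 3 mice. Wild-type mice were kept in room air (WT-RA) or hyperoxia (WT-O2), and so were GSDMD-KO mice (KO-RA or KO-O2). GSDMD-KO mice carry a CRISPR/Cas9 deletion in the gasdermin D gene in all cells, on a C57/B6 background, and were homozygotes compared with wild-type littermates from matings of heterozygotes. Gasdermin D forms membrane pores in inflammatory cell death. For the lung, newborn mice breathed 85% or 21% oxygen from postnatal day 1 to day 14 and tissue was taken on day 15. For the retina, pups breathed 75% oxygen from postnatal day 7 to day 12, returned to room air and were sampled on day 18, with mice kept in room air as controls, so that these retinas had been out of high oxygen for days. The comparisons ask what hyperoxia does in each genotype and whether loss of gasdermin D alters it.

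RBM3 and CIRBP each hold 1 RNA recognition motif followed by a glycine-rich tail. In cooled cells they bind mRNAs and support translation and mRNA stability, and RBM3 is known in the brain for preserving synapses. CIRBP also carries messages of the circadian clock and, when released from stressed cells, acts on the innate immune receptor TLR4. Both respond in the opposite direction to heat-shock chaperones when temperature changes, and both have been studied under low oxygen.

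Rbm3 lies on chromosome X at 8138975 to 8145880 on the minus strand and Cirbp on chromosome 10 at 80165985 to 80172786 on the plus strand (GRCm38, GENCODE M21). The annotation gives Rbm3 11 transcripts, of which 4 retain an intron or are marked for nonsense-mediated decay, and Cirbp 7 transcripts, of which 5 are of these kinds. Counts per gene add the transcripts of a gene together, and the release the authors counted on may hold others than these. The first 90 coding bases, which begin the RNA recognition motif, are shown to make the kinship of the genes visible, with the bases that differ in capitals.
Rbm3: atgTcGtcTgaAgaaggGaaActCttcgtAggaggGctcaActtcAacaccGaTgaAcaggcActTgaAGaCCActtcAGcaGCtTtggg
Cirbp: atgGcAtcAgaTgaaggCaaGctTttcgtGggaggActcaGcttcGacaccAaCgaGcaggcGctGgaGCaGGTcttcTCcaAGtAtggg
Of these 90 bases 64 (71.1%) were identical, and the longest identical run was 5 bases. No stretch of 31 bases, the default word length of kallisto, was shared between the 4891 such words of the Rbm3 transcripts and the 2655 of the Cirbp transcripts, as far as this release goes. The processed pseudogene Rbm3-ps on chromosome 1 shared 372 of its 435 words with Rbm3, and its count did not exceed 14.2 in any retina or 1.18 in any lung. The antisense gene Rbm3os overlaps the first 452 bases of Rbm3, was not analysed here, and its reads could not be told apart from those of Rbm3 there if the libraries did not keep strand, which is not given in the sources used here.

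The Cirbp promoter is shown because the mild-cold response element TCCCCGCC, a motif bound by the transcription factor SP1, was described in this gene. The stretch lies at chr10:80167589-80167777 on the plus strand (RefSeq, GRCm38.p6) and ends just before the start of the main coding transcript Cirbp-202. The capitals mark TCCCCGCC.
Cirbp promoter: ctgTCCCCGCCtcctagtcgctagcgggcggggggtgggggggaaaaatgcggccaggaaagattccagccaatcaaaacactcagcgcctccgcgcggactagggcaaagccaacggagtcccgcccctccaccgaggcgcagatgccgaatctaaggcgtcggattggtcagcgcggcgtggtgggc
TCCCCGCC occurred once, 186 bases before the transcript start, and the shorter SP1 motif GGGCGG once on each strand, without overlap with it. The stretch is the first 189 bases of 1 of 2 windows that the RefSeq set holds for Cirbp. Searched on both strands, TCCCCGCC was found in 2.86% and GGGCGG in 22.6% of the first 189 bases of all 32851 windows of that set. A match of letters is a description and was not tested as a binding site. Rbm3 has no entry in that set.

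The expected counts summed to between 28763661 and 29604254 per lung and between 24863257 and 29093035 per retina. Rbm3 had between 4514 and 8395 counts per lung and between 2639 and 7518 per retina, and Cirbp between 914 and 1892 per lung and between 6294 and 13200.5 per retina, and the counting error is largest for Cirbp in the lung. Gsdmd, the targeted gene, stood at 40.6 to 42.4 CPM (counts relative to the library's total, after TMM scaling) in WT-RA and 22.7 to 24.9 in KO-RA lungs, and after hyperoxia at 32.2 to 36.5 in wild type and 11.8 to 16.4 in GSDMD-KO, with no overlap between genotypes. In the retina it stood between 0.49 and 5.77 CPM in wild type and between 0.71 and 3.02 CPM in GSDMD-KO, where the genotypes overlapped. Lens transcripts made up 2.07% and 6.18% of the counts of WT-RA replicates 2 and 3 and 3.14% of KO-RA replicate 3, and no retina that had breathed high oxygen stood apart in this way. Y-linked transcripts were present in all room air retinas but in 1 of 3 exposed retinas of each genotype, and in the lung in 0 of 3 WT-RA, 2 of 3 KO-RA, 1 of 3 WT-O2 and 3 of 3 KO-O2 libraries. Rbm3 is X-linked. Its retinal values with Y-linked presence as a covariate are given below, and its lung values where they change a call.

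In the retina Rbm3 was at 2.18 times its room air level in hyperoxia-exposed GSDMD-KO mice and slightly above it in hyperoxia-exposed wild type. Levels are CPM after TMM scaling, which corrects library totals for differences in composition. The 3 WT-RA retinas stood at 116, 109 and 113 CPM, the 3 KO-RA retinas at 108, 120 and 115 CPM. The 3 WT-O2 retinas stood at 122, 128 and 131 CPM, and the 3 KO-O2 retinas at 261, 248 and 238 CPM. The room air groups overlapped, the WT-O2 retinas all lay above both of them, and every KO-O2 retina lay above every other retina.

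The fitted log2 fold change of Rbm3 between KO-O2 and KO-RA retinas was 1.12 ± 0.07 (SE, n = 3 mice per group), a fold of 2.18. Between WT-O2 and WT-RA it was 0.18 ± 0.07, a fold of 1.13. The KO change exceeded the WT change by 0.95 ± 0.10 on the log2 scale. KO-O2 retinas lay 0.97 ± 0.07 above WT-O2 retinas, and KO-RA differed from WT-RA by 0.02 ± 0.07. Among 12104 retina genes that averaged 5 CPM or more, the KO rise of Rbm3 ranked 176th from the top. These values chose the gene and are not a test of it. For the same reason nothing is read from the share of all tested genes that the quasi-likelihood test of edgeR, after Benjamini-Hochberg adjustment, called at an adjusted p under 0.1, which was 0.00522% of 19173 genes for the interaction, for KO-O2 against WT-O2 1.27% and for KO-RA against WT-RA 0.00522%. Groups of 3 without overlap, in either direction, were found for 24% of genes between WT-O2 and WT-RA for 26.2% between KO-O2 and KO-RA and for 19.9% between KO-O2 and WT-O2.

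The size of the wild-type difference moved with the scaling. Dividing by library totals alone gave 0.41 ± 0.09 for Rbm3 between WT-O2 and WT-RA, but that scaling also moved the median of all tested retina genes by 0.24 in this comparison. The excess of the KO change over the WT change was then 0.76 ± 0.12. In KO-O2 against KO-RA the same change moved the median gene by 0.05. With Y-linked presence as a covariate retinal Rbm3 measured 0.14 ± 0.09 in WT-O2 against WT-RA and 1.09 ± 0.09 in KO-O2 against KO-RA. Without the 3 libraries with lens transcripts, an alternative chosen after seeing the data, the values were 0.13 and 1.13.

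**Figure D1:**
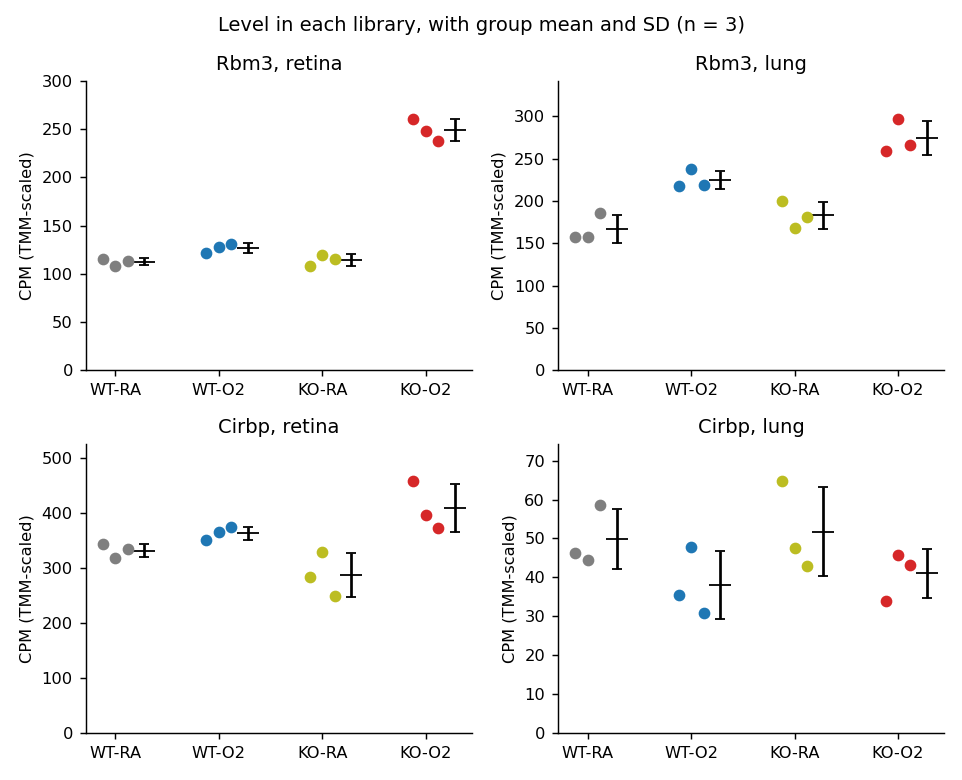
CPM after TMM scaling (vertical axes, from 0) of Rbm3 and Cirbp in each retina and lung library by group, with the group mean and SD (n = 3) beside the points. KO-O2 retinas stand at 238 to 261 CPM for Rbm3, above all other retinas, and hyperoxia-exposed lungs of both genotypes lie above all room air lungs for Rbm3.

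Cirbp in the retina was higher after hyperoxia in GSDMD-KO mice, by a smaller fold than Rbm3, and the call was not stable. The 3 KO-RA retinas stood at 285, 329 and 250 CPM and the 3 KO-O2 retinas at 458, 398 and 374 CPM. The 3 WT-RA retinas stood at 344, 319 and 335 CPM and the 3 WT-O2 retinas at 351, 365 and 375 CPM. In the order of means, KO-RA (288 ± 39.8 CPM) and WT-RA (332 ± 12.7) overlapped, as did WT-O2 (364 ± 11.7) and KO-O2 (410 ± 43.5, SD, n = 3 each), while within each genotype the exposed retinas all lay above the room air retinas, a lack of overlap shared in either direction by 24% of all genes in wild type and 26.2% in GSDMD-KO.

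Between KO-O2 and KO-RA retinas Cirbp rose by 0.51 ± 0.11 (SE) on the log2 scale, a fold of 1.42, with an adjusted p of 0.0337 (edgeR's quasi-likelihood test, Benjamini-Hochberg). In that comparison 4.38% of all tested genes were called higher and 3.44% lower. Between WT-O2 and WT-RA the difference was 0.13 ± 0.11 (adjusted p = 0.609, edgeR), with a 95% interval from -0.12 to 0.38, where 3.11% of genes were called higher and 2.05% lower. Scaling by library totals alone gave 0.37 ± 0.14 (adjusted p = 0.127, edgeR). That scaling moved the median of all tested retina genes by 0.24 here. The difference between the changes in the 2 genotypes was 0.38 ± 0.16 (adjusted p = 0.434, edgeR), with a 95% interval from 0.03 to 0.73 that is not adjusted for the number of genes, so that a genotype-dependent response of Cirbp was not called. Under library totals alone this difference was 0.18 ± 0.20 (95% interval -0.24 to 0.61, adjusted p = 0.732, edgeR). KO-O2 and WT-O2 differed by 0.17 ± 0.11 (adjusted p = 0.588, edgeR) and KO-RA and WT-RA by -0.21 ± 0.11 (adjusted p = 0.469, edgeR).

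The KO call of Cirbp lay near the threshold. Without KO-RA replicate 3, a library with lens transcripts and the lowest Cirbp value, the log2 fold change was 0.42 (adjusted p = 0.107, edgeR). It was also no longer called without KO-RA replicate 1 (0.50, adjusted p = 0.104) or without KO-O2 replicate 2 (0.53, adjusted p = 0.102), without all 3 libraries with lens transcripts (0.42, adjusted p = 0.127, an alternative chosen after seeing the data) or with Y-linked presence as a covariate (0.46, adjusted p = 0.132), all in edgeR with Benjamini-Hochberg adjustment.

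Markers of retinal cell types were listed beside these values, and their part in them was not tested. In bulk tissue, fewer cells of a type and less RNA per cell cannot be told apart. All 5 bipolar cell markers were measured, and their summed level was 1257 to 1337 CPM of the library total in KO-O2 against 1028 to 1073 in KO-RA, 927 to 1013 in WT-O2 and 883 to 1182 in WT-RA, so that KO-O2 retinas were the highest here too, with 1 of the 5 genes called higher and none lower between KO-O2 and KO-RA and none higher and 2 lower between WT-O2 and WT-RA. The 7 rod markers summed to 51712 to 59069 CPM in KO-O2 and 60119 to 66249 in KO-RA, with none of the 7 called at an adjusted p under 0.1 in edgeR (2 at an unadjusted p under 0.05, 2 called by DESeq2). The 7 erythroid markers present summed to 385 to 446 CPM in KO-O2 and 565 to 781 in KO-RA, while WT-O2 at 1027 to 1710 CPM lay above WT-RA at 601 to 955. Of the 5 tested, edgeR called 2 lower in GSDMD-KO and none in wild type, where 1 was at an unadjusted p under 0.05. The 6 endothelial markers summed to 167 to 181 CPM in KO-O2 against 109 to 138 in KO-RA, with 4 of 6 called higher, and to 197 to 229 CPM in WT-O2 against 98.0 to 115 in WT-RA, with 5 of 6 called higher. The 8 pigment epithelium markers summed to 89.8 to 233 CPM in KO-O2 against 281 to 1893 in KO-RA, where edgeR called none and DESeq2 called 6, and to 104.02 to 230.2 CPM in WT-O2 against 159 to 474 in WT-RA, where neither called any, with 0 of 8 at an unadjusted p under 0.05. Microglia markers were at 64.2 to 87.7 CPM in KO-O2 and 59.7 to 88.4 in WT-O2 against 33.6 to 40.7 in KO-RA and 30.9 to 39.4 in WT-RA, and so were higher after hyperoxia in both genotypes. Proliferation markers summed to 18.4 to 27.8 CPM in WT-O2 against 2.11 to 6.1 in WT-RA, with 4 of 5 called higher, and to 7.2 to 12.6 CPM in KO-O2 against 2.69 to 5.48 in KO-RA, with 1 of 5 called higher. No rod, bipolar or microglia marker was at 0 throughout. Of all genes 4.38% were called higher and 3.44% lower in GSDMD-KO, and 3.11% and 2.05% in wild type. At an unadjusted p under 0.05 were 3890 of 19173 tested genes in GSDMD-KO and 3332 in wild type.

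In the lung Rbm3 rose with hyperoxia in both genotypes. The 3 WT-RA lungs stood at 158, 157 and 186 CPM and the 3 WT-O2 lungs at 218, 237 and 219 CPM. The 3 KO-RA lungs stood at 200.4, 168 and 181 CPM and the 3 KO-O2 lungs at 259, 297 and 266 CPM. The room air groups overlapped, and the WT-O2 lungs lay above both of them and below all 3 KO-O2 lungs. Groups of 3 without overlap between KO-O2 and WT-O2 lungs, in either direction, were found for 12.2% of all genes.

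The log2 fold change of Rbm3 was 0.43 ± 0.09 in WT-O2 against WT-RA lungs (fold 1.34, adjusted p = 0.00218) and 0.58 ± 0.09 in KO-O2 against KO-RA lungs (fold 1.5, adjusted p = 0.000213), both in edgeR with Benjamini-Hochberg adjustment. Both calls held under every alternative run, with log2 fold changes from 0.39 to 0.52 in wild type and from 0.53 to 0.65 in GSDMD-KO. Hyperoxia changed a large part of the lung transcriptome: 24.5% of 16819 tested genes were called higher and 24.7% lower in wild type, and 23.3% higher and 23.4% lower in GSDMD-KO. Groups without overlap in either direction were found for 49.8% of genes in wild type and 52.4% in GSDMD-KO, so that a rise of this kind was common in these lungs. Among 12188 lung genes that averaged 5 CPM or more, the rise of Rbm3 ranked 1923rd in wild type and 1109th in GSDMD-KO.

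The lung response of Rbm3 was not shown to depend on genotype. The KO change exceeded the WT change by 0.16 ± 0.13 (95% interval -0.13 to 0.44, adjusted p = 0.905), KO-O2 and WT-O2 lungs differed by 0.29 ± 0.09 (95% interval 0.09 to 0.49, not adjusted for the number of genes, adjusted p = 0.593), and KO-RA and WT-RA lungs by 0.13 ± 0.09 (adjusted p = 0.693), all in edgeR. Of all tested genes 0.00595% were called for the interaction, 0.0416% between KO-O2 and WT-O2 and 0.488% between KO-RA and WT-RA. The tissues came from different exposures and ages and from tables normalized separately, and no test was made between them.

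Cirbp in the lung did not rise. The 3 WT-RA lungs stood at 46.2, 44.6 and 58.7 CPM and the 3 WT-O2 lungs at 35.4, 47.8 and 30.9 CPM. The 3 KO-RA lungs stood at 64.6, 47.6 and 43.0 CPM and the 3 KO-O2 lungs at 33.8, 45.8 and 43.3 CPM. All 4 groups overlapped, though each hyperoxia mean was below its room air mean. The log2 fold change was -0.39 ± 0.19 in wild type (95% interval -0.81 to 0.03, adjusted p = 0.126) and -0.34 ± 0.19 in GSDMD-KO (95% interval -0.76 to 0.08, adjusted p = 0.192) in edgeR with Benjamini-Hochberg adjustment, so that neither was called. In wild type it was called by DESeq2 (adjusted p = 0.0984) and in edgeR without WT-O2 replicate 2 (-0.59, adjusted p = 0.0302) or without KO-RA replicate 1 (-0.39, adjusted p = 0.0844). The wild-type value was smaller in size without WT-RA replicate 3 (-0.25, adjusted p = 0.376) or with Y-linked presence as a covariate (-0.25, adjusted p = 0.22). In GSDMD-KO it was -0.14 without KO-RA replicate 1 (adjusted p = 0.585) and -0.16 with the covariate (adjusted p = 0.448), all in edgeR. The changes in the 2 genotypes differed by 0.06 ± 0.27 (adjusted p = 0.989), KO-O2 and WT-O2 lungs by 0.11 ± 0.19 (adjusted p = 0.965) and KO-RA and WT-RA lungs by 0.05 ± 0.19 (adjusted p = 0.965), all in edgeR.

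**Figure D2:**
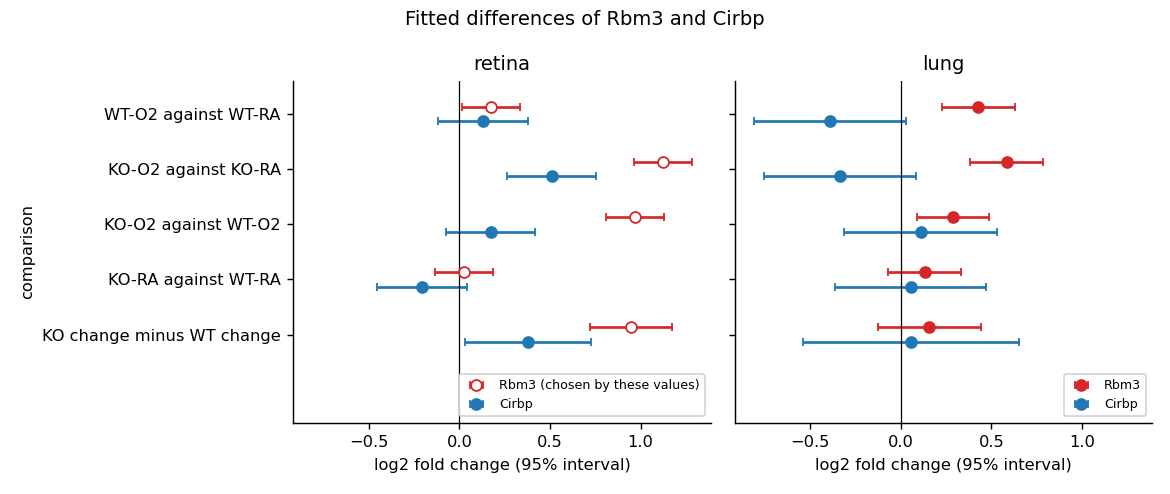
Fitted log2 fold changes (horizontal axis) with 95% intervals of Rbm3 and Cirbp for each comparison in retina and lung, with open symbols where the values chose the gene. In the lung the intervals of Rbm3 lie above 0 for hyperoxia in both genotypes and those of Cirbp reach from -0.81 to 0.08.

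The count of Rbm3 divided by that of Cirbp in the same library does not depend on how libraries are scaled. The ratio also reflects transcript length, so only its differences between groups are read. In wild-type lungs the log2 ratio was 1.75 ± 0.08 in room air and 2.59 ± 0.26 after hyperoxia, and in GSDMD-KO lungs 1.84 ± 0.22 and 2.75 ± 0.17 (SD, n = 3). Every hyperoxia lung had a higher ratio than every room air lung. The mean difference over the genotypes was 0.87, with p = 0.005 in an exact two-sided permutation test of exposure within genotype, the smallest that its 400 arrangements can give. This test was added after the levels had been seen, and is not independent of the separation that prompted it.

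In wild-type retinas the log2 ratio was -1.56 ± 0.01 in room air and -1.52 ± 0.01 after hyperoxia, and in GSDMD-KO retinas -1.33 ± 0.19 and -0.71 ± 0.09. It holds the values that chose Rbm3, and was not tested. In wild type the ratio moved by 0.04, and in GSDMD-KO by 0.61. Among KO-RA retinas, replicate 3, with lens transcripts, had the highest ratio at -1.11.

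**Figure D3:**
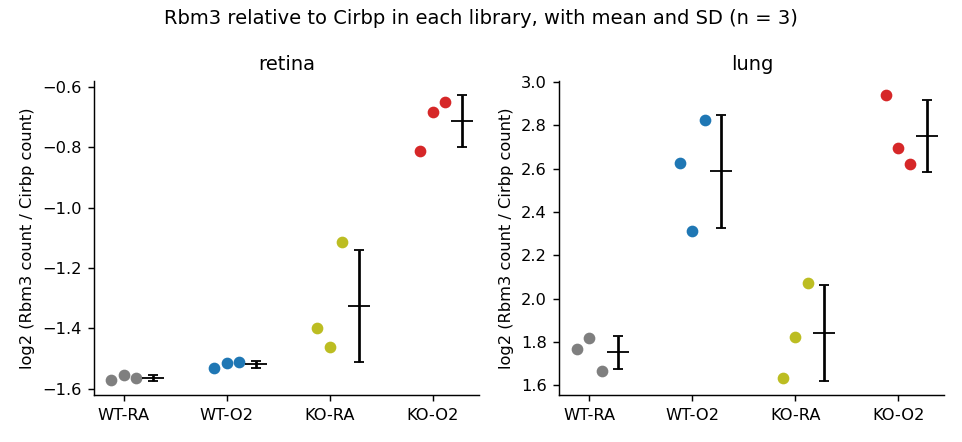
Log2 of the Rbm3 count over the Cirbp count (vertical axes, which differ between the tissues and do not start at 0) in each library by group, with mean and SD (n = 3). In the lung all hyperoxia libraries lie above all room air libraries, and in the retina the KO-O2 libraries lie at -0.81 to -0.65, above the others.

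Within groups the genes tended to vary together, with an exact permutation p under 0.05 only for Pearson's correlation in the lung. After the mean of each group was taken away, the Pearson correlation of their log2 CPM over the 12 lungs was 0.81 (exact permutation p within groups = 0.0116, adjusted 0.0231 over 2 tissues) and Spearman's rho was 0.59 (exact permutation p = 0.054, adjusted 0.0602). Without the 2 lungs farthest from the median of Rbm3 the Pearson correlation was 0.71. Over the 12 retinas Pearson's r was 0.63 (exact permutation p within groups = 0.12) and Spearman's rho 0.71 (exact permutation p = 0.0602). They are read as a description, because Rbm3 was selected on its values there. Pearson's r was 0.66 without the 2 farthest retinas. The permutation kept libraries in their groups. Both genes of a library share its scaling factor, and with library totals alone the retinal correlation was 0.93.

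**Figure D4:**
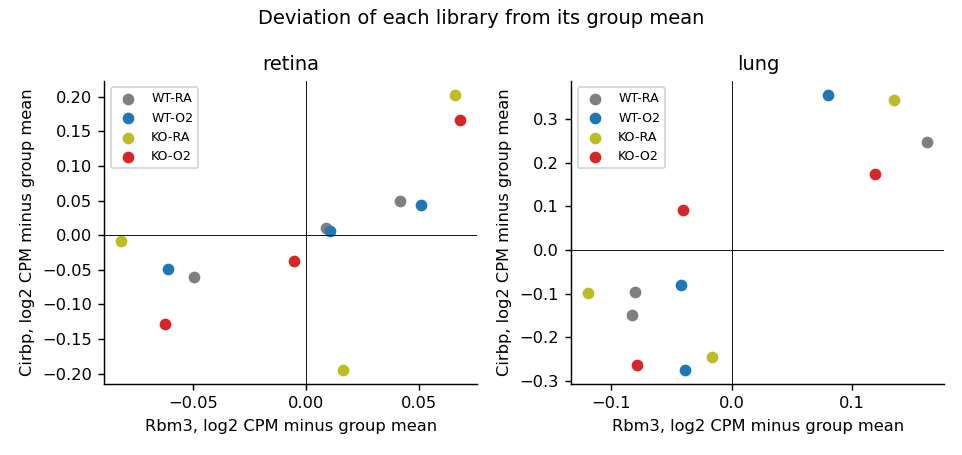
Deviation of each library from its group mean in log2 CPM for Rbm3 (horizontal) and Cirbp (vertical), coloured by group. In the lung libraries high in Rbm3 for their group are high in Cirbp (Pearson's r 0.81), and in the retina 1 KO-RA library lies away from the trend.

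The genes whose pattern over the 12 libraries was most like each member were named by the smallest root mean square difference of standardised log2 CPM. In the retina Rbm3 was closest to Kctd18 (0.27), Armcx5 (0.30), H3f3b (0.31), Ipo9 (0.33) and Tmem255b (0.34). Armcx5 averaged 18.1 CPM in KO-O2 and between 8.44 and 9.49 CPM in the other groups, and Ipo9, an importin of the nuclear transport machinery, 204 CPM in KO-O2 and between 113 and 117 CPM elsewhere. H3f3b, which encodes histone H3.3, averaged 913 CPM in KO-O2 and between 564 and 616 CPM elsewhere. Cirbp ranked 341st of 12104 genes in likeness to Rbm3 there. Retinal Cirbp was closest to Izumo4 (0.49), Cfap126 (0.51), Fance (0.53), Bin1 (0.54) and Fkbp7 (0.54).

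In the lung Rbm3 was closest to Mad2l1 (0.26), Psat1 (0.27), Nipsnap2 (0.27), Smad3 (0.27) and Capn6 (0.28). Psat1, an enzyme of serine synthesis, averaged 21.2 and 22.8 CPM in WT-RA and KO-RA and 30.7 and 36.8 CPM in WT-O2 and KO-O2, and Smad3, a transducer of TGF-beta signals, 62.5 and 67.4 CPM against 89.2 and 103 CPM. Cirbp ranked 7617th of 12188 in likeness to Rbm3. Lung Cirbp was closest to Bicdl1 (0.35), Neurl2 (0.41), Trmu (0.42), Smarcd1 (0.42) and Mettl27 (0.43).

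Genes tied to the pair by function were described in short lists, which were chosen with earlier results of these data known. Among 17 regulators, targets and receptors of RBM3 and CIRBP, 16 were tested in the retina, where none was called in KO-O2 against KO-RA by edgeR (2 at an unadjusted p under 0.05, and 2 by DESeq2) and 3 were called higher in WT-O2 against WT-RA, where 4.38% and 3.11% of all genes were called higher. In KO-O2 against KO-RA 3890 of all 19173 tested genes were at an unadjusted p under 0.05. Sp1, the factor that acts on the mild-cold element, was 1 of the 3 in wild type (log2 fold change 0.45 ± 0.12, adjusted p = 0.0691 in edgeR) and measured 0.13 ± 0.12 in GSDMD-KO. Ntrk2, the BDNF receptor placed upstream of RBM3 in neurons, measured 0.05 ± 0.16 in wild type and -0.24 ± 0.16 in GSDMD-KO. Rtn3, a synaptic target of RBM3, measured -0.29 ± 0.10 in wild type and -0.32 ± 0.10 in GSDMD-KO (adjusted p = 0.103 in edgeR). Hnrnph1, which controls the splicing of Rbm3, measured 0.01 ± 0.11 and 0.02 ± 0.11. Tlr4, the receptor of extracellular CIRBP, averaged between 0.83 and 1.59 CPM in the retina groups and measured 0.45 ± 0.71 and 0.44 ± 0.72.

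In the lung 4 of the 17 were called higher and 5 lower in each genotype, near the shares of all tested lung genes (24.5% higher and 24.7% lower in wild type, 23.3% and 23.4% in GSDMD-KO). Ntrk2 averaged 84.9 ± 4.65 CPM in WT-RA lungs against 7.65 ± 1.85 CPM in WT-O2 lungs, and 66.3 ± 12.9 CPM in KO-RA against 7.33 ± 1.41 CPM in KO-O2 lungs (SD, n = 3). Its log2 fold change was -3.48 ± 0.19 in wild type and -3.19 ± 0.19 in GSDMD-KO (adjusted p = 2.9e-08 and 7.2e-08 in edgeR). Rbm3 and Ntrk2 changed in opposite directions in the lung, and a link between them was not tested. Tlr4 rose by 0.97 ± 0.21 in wild type and 0.81 ± 0.21 in GSDMD-KO (adjusted p = 0.0028 and 0.00894 in edgeR). Creb1, a transcription factor downstream of BDNF signals, fell by 0.54 ± 0.11 in wild type and by 0.50 ± 0.11 in GSDMD-KO. Ly96, the co-receptor of TLR4, rose by 0.60 ± 0.18 in GSDMD-KO (adjusted p = 0.0173 in edgeR). Hnrnph1 fell by 0.24 ± 0.10 in wild type and by 0.25 ± 0.10 in GSDMD-KO (adjusted p = 0.063 and 0.0507 in edgeR). Sp1 measured -0.20 ± 0.10 and -0.11 ± 0.10, and Rtn3 -0.15 ± 0.08 and 0.03 ± 0.08.

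Heat-shock chaperones and their HSF factors were listed because cooling lowers them as it raises RBM3, and a part of temperature was not tested. In KO-O2 against KO-RA retinas their median log2 fold change was -0.25 over 18 genes, beside 0.0007 over all tested genes. Of the 18 genes 15 lay below 0, while 9603 of all 19173 tested genes lay above 0. A single gene, Hsph1, which encodes an HSP70 partner chaperone, was called lower (-0.50 ± 0.09, adjusted p = 0.0174 in edgeR) and none higher, near the 3.44% and 4.38% of all genes called lower and higher. At an unadjusted p under 0.05 were 7 of the 18, beside 3890 of all 19173 tested genes, and DESeq2 called 4 lower. Hsph1 stood at 47.7 to 58.7 CPM in KO-RA, 35.0 to 39.5 in KO-O2, 49.8 to 55.5 in WT-RA and 48.8 to 51.7 in WT-O2. In wild type edgeR called none and the median was -0.13, with 6 of the 18 above 0. There 5 of the 18 were at an unadjusted p under 0.05, beside 3332 of all 19173 tested genes, and DESeq2 called 1 higher and 3 lower. Cryab, which is also a lens crystallin, and Hspb1 had the lowest values in both genotypes, and lens transcripts were found in room air retinas of both. In the lung 5 of the 18 were called higher and 2 lower in each genotype, beside 24.5% and 24.7% of all genes in wild type and 23.3% and 23.4% in GSDMD-KO. Hspa1b, an inducible HSP70, rose there in both genotypes (1.06 ± 0.15 in wild type and 0.52 ± 0.15 in GSDMD-KO, adjusted p = 6.5e-05 and 0.013 in edgeR). In GSDMD-KO lungs Dnaja1 fell by 0.49 ± 0.11 and Fkbp4 by 0.34 ± 0.08.

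CLK kinases and SR proteins, temperature-sensitive regulators of splicing, were called lower in 11 of 17 in wild-type and 12 of 17 in GSDMD-KO lungs, with 1 higher in each, beside 24.7% and 23.4% of all genes called lower (medians -0.24 and -0.29, beside -0.007 and -0.01 for all tested genes). Clk1 fell by 1.43 ± 0.13 in wild type and by 1.48 ± 0.13 in GSDMD-KO, and Clk4 by 0.77 ± 0.14 and 0.73 ± 0.14 (all with adjusted p from 7.5e-07 to 0.00124 in edgeR). In GSDMD-KO retinas the median was 0.05 and 1 of the 17, Tra2a, was called (-0.48 ± 0.13, adjusted p = 0.0697 in edgeR), near the 3.44% of all genes called lower. There 5 of the 17 were at an unadjusted p under 0.05, beside 3890 of all 19173 tested genes, and DESeq2 called 2 higher and 1 lower. In wild-type retinas the median was 0.03, with none of the 17 called by either tool or at an unadjusted p under 0.05.

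Cold-shock domain genes encode another family of cold-linked nucleic acid binding proteins. None of the 8 was called in the retina in either genotype by edgeR, with 2 in wild type and 1 in GSDMD-KO at an unadjusted p under 0.05 and 1 and 0 called by DESeq2. Of all 19173 tested genes, 3332 in wild type and 3890 in GSDMD-KO were at an unadjusted p under 0.05. Calls by edgeR covered 3.11% higher and 2.05% lower in wild type, and 4.38% and 3.44% in GSDMD-KO. In the lung 6 were tested, of which 2 were called higher and 1 lower in wild type and 2 higher and 3 lower in GSDMD-KO (24.5% and 24.7%, and 23.3% and 23.4%, of all genes), with Ybx3 higher (0.55 ± 0.09 and 0.26 ± 0.09) and Csdc2 lower (-0.91 ± 0.13 and -1.17 ± 0.13) in both.

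Other genes of the RBM name family were mostly not called in the retina. Of 42 listed, 39 were tested there, and 1 was called higher and 2 lower in KO-O2 against KO-RA and 1 each way in WT-O2 against WT-RA, near the shares of all genes (4.38% and 3.44%, and 3.11% and 2.05%). Rbm17 was called higher in both genotypes (0.56 ± 0.12 in wild type and 0.40 ± 0.12 in GSDMD-KO), and Rbm15 measured -0.56 ± 0.14 in GSDMD-KO. Rbm15 averaged 8.59 CPM in KO-RA and 5.86 CPM in KO-O2, but 6.43 CPM in WT-RA and 8.01 CPM in WT-O2. In the lung 40 were tested, 6 higher and 10 lower in wild type and 5 higher and 9 lower in GSDMD-KO, where all genes gave 24.5% and 24.7%, and 23.3% and 23.4%. Rbm19, which acts in ribosome assembly, rose by 0.91 ± 0.13 in wild type and 0.73 ± 0.12 in GSDMD-KO.

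Oxygen and clock genes were listed because both systems have been tied to the pair. Of 13 targets of the hypoxia-inducible factor HIF, 4 were called higher and none lower in each genotype of retina by edgeR, beside 3.11% of all genes higher in wild type and 4.38% in GSDMD-KO. Adm, which encodes the vasodilator adrenomedullin, rose by 3.09 ± 0.25 and Vegfa by 1.0 ± 0.13 in KO-O2 against KO-RA, and by 3.72 and 1.25 in WT-O2 against WT-RA, so that these genes were up in the wild-type retina as well. In the lung 8 were called higher and 2 lower in wild type and 7 and 3 in GSDMD-KO, beside 24.5% and 24.7%, and 23.3% and 23.4%, of all genes. Of the clock genes Bhlhe40, a repressor in the clock's feedback loop, was called higher in the retinas of both genotypes (0.45 ± 0.11 in wild type and 0.42 ± 0.11 in GSDMD-KO, adjusted p = 0.0584 and 0.0635 in edgeR). In the lung 6 of 20 clock genes were called higher and 4 lower in wild type and 6 higher and 5 lower in GSDMD-KO, near the 24.5% and 24.7%, and 23.3% and 23.4%, of all genes, with Bhlhe40 at 1.86 ± 0.10 and 1.87 ± 0.10 and Hlf at -1.83 ± 0.16 and -2.02 ± 0.16.

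**Figure D5:**
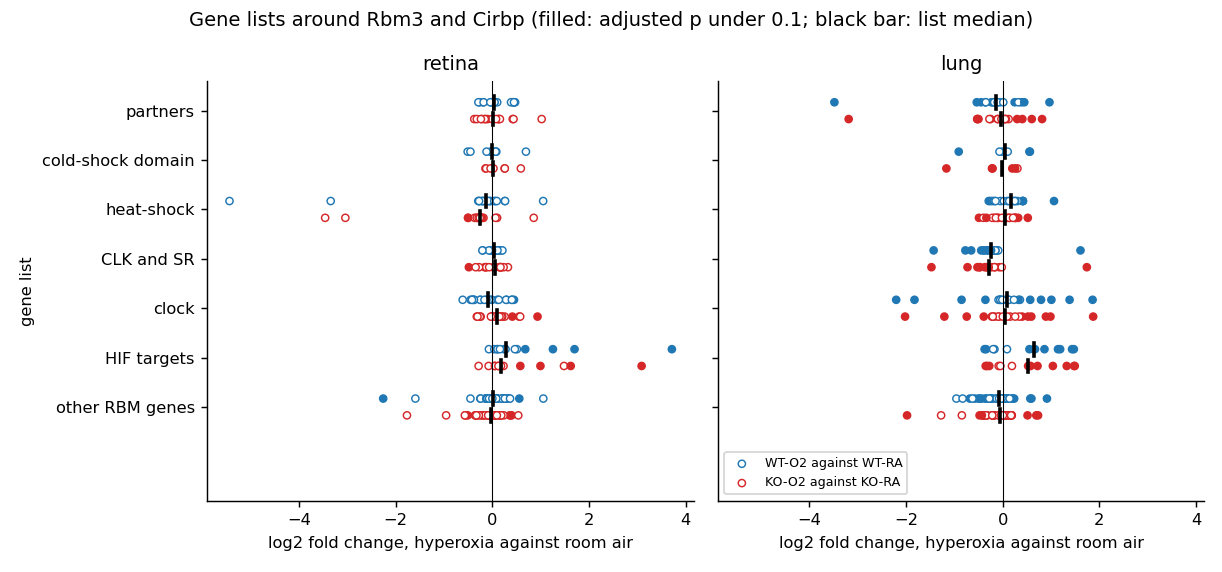
Log2 fold change of hyperoxia against room air (horizontal axis) of each tested gene in 7 lists, by genotype, in retina and lung, with filled points for an adjusted p under 0.1 in edgeR and a black bar at the list median. Heat-shock genes lie mostly below 0 in KO-O2 retinas (median -0.25), and CLK and SR genes mostly below 0 in the lung.

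Cell type markers also moved in the lung, and their part in the rise of Rbm3 was not tested. Proliferation markers were at 140 to 200.2 CPM of the library total in WT-O2 and 165 to 187 in KO-O2 against 94.0 to 146 in WT-RA and 122 to 168 in KO-RA, with 4 of 5 called higher in wild type and 1 of 5 in GSDMD-KO. Lymphocyte markers fell in 5 of 5 genes in wild type and 4 of 5 in GSDMD-KO, and alveolar type 2 markers in 3 of 6 and 4 of 6, beside 24.7% and 23.4% of all genes called lower. Macrophage markers were called higher in 5 of 7 genes and lower in 1 in each genotype (medians 0.51 and 0.60), beside 24.5% and 23.3% of all genes, and summed to 396 to 414 CPM in WT-O2 against 328 to 368 in WT-RA and to 345 to 397 CPM in KO-O2 against 287 to 310 in KO-RA. Endothelial markers were called lower in 4 of 6 in wild type and 3 of 6 in GSDMD-KO, with 1 called higher in GSDMD-KO, and summed to 2852 to 3255 CPM in WT-O2 against 3678 to 3951 in WT-RA and to 2687 to 3245 CPM in KO-O2 against 3413 to 3505 in KO-RA. Erythroid markers were at 2913 to 4127 CPM in WT-O2 and 6092 to 28556 in KO-O2, against 15689 to 18067 in WT-RA and 12980 to 27267 in KO-RA. Of these, 7 of 7 were called lower in wild type and 1 of 7 in GSDMD-KO. Liver markers were at 1.98 to 169 CPM in KO-O2 against 1.52 to 2.71 in KO-RA, with KO-O2 replicate 1 at the top of that range. Of the 3 tested genes edgeR called all 3 higher and DESeq2 called none. Without KO-O2 replicate 1 the log2 fold change in KO-O2 against KO-RA was 0.62 for Rbm3 and -0.22 for Cirbp.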

How the data were processed

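RNA from 12 lungs and 12 retinas, each of 1 mouse, was sequenced by BGI. Transcript abundances were estimated with kallisto and imported at gene level with tximport by the authors. They are expected counts, deposited in 1 table per tissue and not scaled to library size. Nonzero values were whole within 0.01 for 55.8% of the lung table and 2.2% of the retina table, so the tables may have been made with different settings, and tests were made within a tissue. The labels name build mm10 and the study's methods a GRCm39 index, and coordinates and transcripts here are those of GENCODE M21 on GRCm38.

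Counts were rounded and fitted in R 4.3.3 with edgeR 4.0.16, with the 12 libraries of a tissue in 1 group-means model after filterByExpr and TMM scaling, with robust quasi-likelihood tests and Benjamini-Hochberg adjustment over 16819 lung or 19173 retina genes. The threshold for a call was an adjusted p of 0.1. The procedure was tested on simulated data, and no result of that test is given here. P-values measure the spread between these mice. Every pair of replicates differed by more than counting noise, with a median chi-square per gene of 2.25 or more.

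The members and lists were chosen with earlier results of these data known. From each list at most 3 called genes with the largest change and a mean of at least 1 CPM were named, with Sp1, Ntrk2, Rtn3, Hnrnph1 and Tlr4 always named. Not every gene the rule picks is reported. Lists of cone, amacrine, ganglion, Mueller glia, ciliary, muscle, airway, alveolar type 1, fibroblast, neutrophil, heart and thymus markers were summed as well and are not described further. In retinas edgeR called lower 2 of 6 ganglion and 2 of 5 Mueller glia markers in each genotype. In wild type it also called 2 of 6 amacrine markers lower. The ganglion, Mueller glia and amacrine lists held no marker called higher in the retina. Of all retina genes 2.05% and 3.44% were called lower in wild type and GSDMD-KO. Lung heart markers were called lower in 4 of 6 in wild type and 2 of 6 in GSDMD-KO (24.7% and 23.4% of all genes). Calls in the other lists, which include markers called higher, are not given. Alternatives were RLE scaling, library totals, no filter, DESeq2 1.42.0, only the 2 groups compared, each library left out, a Y-linked covariate, the pseudogene added to its parent, and the libraries with lens transcripts left out, which was chosen after seeing the data.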

Additional observations from a re-analysis of the deposited data

Results flagged for a closer look

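Cirbp was picked out because its libraries lay on opposite sides of room air in the tissues, although only the change in GSDMD-KO retinas was called, and that call was not stable. Every hyperoxia-exposed retina lay above the room air mean of its genotype and every hyperoxia-exposed lung lay below it, and the mean log2 difference was 0.69 higher in the retina than in the lung. This difference between the tissues was not tested, and oxygen level, age at exposure and days of recovery in room air differ with the tissue and cannot be told apart from it. Groups of 3 mice were too small for a search for single outlying libraries.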

How the results depend on the processing

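Of 412 recomputed member values and correlations, 387 kept their direction and side of the threshold or moved by less than the spread between replicates. With library totals in place of TMM, retinal Rbm3 measured 0.41 in WT-O2 against WT-RA, 0.19 in KO-RA against WT-RA and 0.76 for the interaction on the log2 scale, while the median of all genes moved by 0.24 and 0.17 in the first pair of comparisons. Retinal Cirbp then measured 0.37 in WT-O2 against WT-RA, -0.03 in KO-RA against WT-RA and 0.18 for the interaction, none called. Retinal Cirbp in KO-O2 against KO-RA was no longer called with Y-linked presence as a covariate (0.46), in a fit of only the 2 groups compared (0.51) or without the 3 libraries with lens transcripts (0.42), and ranged from 0.42 to 0.62 when libraries were left out singly. The same omissions gave it 0.085 to 0.23 in KO-O2 against WT-O2 and -0.31 to -0.11 in KO-RA against WT-RA. For the interaction they gave 0.29 to 0.49, and none of these was called. When lungs were left out singly, Cirbp ranged from -0.59 to -0.25 in WT-O2 against WT-RA, from -0.028 to 0.30 in KO-O2 against WT-O2, from -0.14 to 0.19 in KO-RA against WT-RA and from -0.085 to 0.25 for the interaction, the latter ranges crossing 0 without a call, and from -0.46 to -0.14 in KO-O2 against KO-RA. With the Y-linked covariate lung Cirbp measured 0.44 in KO-O2 against WT-O2 (main value 0.11) and 0.35 in KO-RA against WT-RA (main value 0.05), neither called, and its hyperoxia changes were -0.25 in wild type (main value -0.39) and -0.16 in GSDMD-KO (main value -0.34). DESeq2 called Cirbp in WT-O2 against WT-RA lungs (-0.38). Lung Rbm3 ranged from 0.065 to 0.22 for the interaction and from 0.058 to 0.22 in KO-RA against WT-RA without single lungs, and neither was called. The retinal correlation within groups was 0.93 with library totals and ranged from 0.49 to 0.94 without single libraries, and the lung correlation from 0.74 to 0.86, where it lost its exact permutation p under 0.05 without WT-RA replicate 3 (p = 0.0532). Of 56 counts of called genes in the lists, 44 were within 1.5 times under DESeq2 and 21 when a fold of at least 2 was also asked for. The cause of these changes was not tested. No paired analysis was possible because replicate numbers only name mice and the labels share none across groups. Sex and the run of mouse numbers differ between groups and cannot be fully told apart from them. Adjusted p-values for retinal Cirbp in KO-O2 against KO-RA ran from 0.000109 to 0.132 over all alternatives.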
